A study of Homo sapiens with 12 samples.

Results

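The NF-κB signaling pathway was examined across 42 genes of the 62757 in the deposited count table, chosen by gene name for their roles in the pathway, with earlier results of these data known. They comprised 5 NF-κB subunits, 5 genes of the IκB family, 10 genes of the activating kinase module, 10 receptor-proximal adaptors, 6 ubiquitin regulators and 6 output targets. Counts of 41 of them were high enough to be tested, and TNFAIP2 was not. All cells were ARPE-19, a human retinal pigment epithelium cell line, trans-differentiated with 3 µM fenretinide (a synthetic retinoid) for 120 h and sequenced as poly(A) RNA in 12 libraries, 3 biological replicates per group. The groups were AAV9-AIPL1wt, an adeno-associated viral vector of serotype 9 with the native AIPL1 sequence; AAV9-AIPL1co, the same vector with a codon-optimized AIPL1 sequence; AAV9-GFP, the reporter vector; and the non-transduced control, which received fenretinide but no vector. AIPL1 is a photoreceptor chaperone whose loss causes a childhood retinal blindness. Vectors were given at 100000 genomes per cell, and the study describes RNA harvest both at 18 h and at 24 h after transduction.

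NF-κB is a family of dimeric transcription factors that inhibitors of the IκB family hold in the cytoplasm. Receptors for interleukin-1, for Toll-like receptor ligands and for tumor necrosis factor recruit adaptors such as MYD88, the TRAF proteins and RIPK1. These activate the IκB kinase complex, the inhibitor is degraded, and the released dimers switch on inflammatory and survival genes together with their own brakes, among them NFKBIA and TNFAIP3. Retinal pigment epithelium uses this pathway when it answers inflammatory cytokines. Of the 42 genes, 19 are textbook targets of NF-κB itself (18 of them tested). The other 23 are the subunit RELA and genes that carry the signal toward NF-κB or restrain it.

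Libraries held 6322811 to 9075660 gene counts each, so that members with fewer than about 100 counts carried visible counting error. Non-transduced control replicate 1 stood apart from the other control libraries, also in the genes described here, and the study left it out; values below are therefore from 11 libraries, with 2 control libraries, and values with all 12 are given beside many of them. It is drawn where single libraries are plotted. Of the retinal pigment epithelium markers RPE65 and TYR had no count in any library and TTR 1 count in all. MITF had 107 to 294 counts per library, and RLBP1, BEST1, PMEL and SERPINF1 had 2 to 29. The epithelial genes KRT8, KRT18, EZR and TJP1 made up most of the 6550 to 18246 counts per library of that 12-gene list. The 7 photoreceptor markers summed to 31 to 82 counts per library and the leukocyte markers to 0 to 6, with AIF1 and CD3E at 0 throughout.

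The kappaB consensus, the 10-base motif to which NF-κB dimers bind, was searched on both strands in the 250 bases before the RefSeq start sites (GRCh38.p14). It was found in the promoters of 14 of the 37 members with an entry (37.8%), against 3221 of 27305 genes (11.8%). Among the members that are themselves NF-κB targets 9 of 15 had it (60%), and among the others 5 of 22 (22.7%). Overlapping matches in a promoter were counted once per gene. The promoters of RELB, NFKBIE, IKBKB, IER3 and CSF1 had no entry. Those of MYD88, IKBKG, TRAF6, RELA, SOD2 and BIRC2 had an entry but no match. The windows below, with a motif match in capitals, are in the direction of the gene. All are of genes with a match that carry results that follow. They lie at chr14:35404811-35404840 (minus strand), chr6:137867182-137867211, chr19:38899931-38899960, chr11:102317275-102317304, chr11:102317339-102317368, chr4:102501300-102501329 and chr6:14117686-14117715 (plus strand), in the order printed. TNFAIP3, NFKBIB and CD83 had further matches that are not marked. A match describes the letters of the window and not binding.
NFKBIA: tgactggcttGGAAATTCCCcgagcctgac
TNFAIP3: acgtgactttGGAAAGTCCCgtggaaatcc
NFKBIB: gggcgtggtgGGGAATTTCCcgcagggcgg
BIRC3 (first match): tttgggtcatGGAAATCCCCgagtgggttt
BIRC3 (second match): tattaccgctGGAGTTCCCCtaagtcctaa
NFKB1: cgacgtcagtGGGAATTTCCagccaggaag
CD83: gctgcccgccGGGGAATCCCccgggctggc
The matches in NFKB1 and NFKBIB had the same 10 letters, and the BIRC3 matches began 199 and 135 bases before its start.

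The native and the codon-optimized AIPL1 vector moved some members of the pathway differently and others alike. With AAV9-AIPL1wt MYD88, IKBKG, IKBKB, TRAF6 and RELA were higher than in every other group, whereas with AAV9-AIPL1co the inhibitor TNFAIP3 and the target SOD2 were. The calls of TNFAIP3 and SOD2 were lost once control replicate 1 was included, and SOD2 overlapped the GFP and control libraries. IER3 and CSF1 rose and BIRC3 fell with both vectors, relative to controls and to AAV9-GFP, in the 11 libraries; with all 12 some of these calls were lost. A member was called higher or lower at an adjusted p below 0.05 in edgeR's quasi-likelihood test, corrected over all 13896 genes tested. Bulk RNA cannot tell apart fewer cells with a transcript and less of it per cell.

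Against the non-transduced control, AAV9-AIPL1wt had 17 of 41 members higher and 6 lower, where 26.4% of all genes tested were called higher and 30.0% lower. For AAV9-AIPL1co 16 members were higher and 9 lower, beside 22.4% and 24.5% of all genes. AAV9-GFP changed 6 members, IRAK1 and IER3 upward and TBK1, TAB3, BIRC2 and BIRC3 downward, beside 2.30% and 6.66% of all genes. These comparisons share their control libraries and are set side by side only. So large a share of all genes was called that the lower counts of the AIPL1 vectors were below or near the background, and the higher counts were above it. The median log2 fold change of the members was 0.27 for AAV9-AIPL1wt, 0.31 for AAV9-AIPL1co and 0.03 for AAV9-GFP, where the medians of all genes were -0.04, -0.02 and 0.01.

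The control comparisons turned on which control libraries were used. With all 12 libraries AAV9-AIPL1wt had 11 members higher and 8 lower (24.3% and 25.4% of the 13693 genes then tested), AAV9-AIPL1co 5 higher and 10 lower (18.3% and 20.0%), and AAV9-GFP 1 higher and 7 lower (2.98% and 6.87%). The median log2 fold changes of the members then became -0.06, -0.21 and -0.37. Without control replicate 3, AAV9-AIPL1wt kept counts of 14 and 3, AAV9-AIPL1co 8 and 6, and AAV9-GFP 0 and 0. AAV9-GFP also had 0 and 0 without control replicate 2 or AAV9-GFP replicate 2 and 1 and 0 without AAV9-GFP replicate 1, while its higher count was 1 without AAV9-AIPL1co replicate 2 and 4 or 5 without any 1 AAV9-AIPL1wt library and its lower count 8 without AAV9-AIPL1wt replicate 2. The names of the deposited files carry 2 dates, the first for control replicate 1, AAV9-GFP replicates 1 and 3, AAV9-AIPL1co replicates 2 and 3 and AAV9-AIPL1wt replicates 1 and 3, the second for the other 5 libraries. Both control libraries used are thus of the second date. With the date as a term in the fit, AAV9-AIPL1wt had counts of 17 and 6, AAV9-AIPL1co of 12 and 8, and AAV9-GFP of 0 and 1. The counts with the date term and without single libraries have no share of all genes beside them.

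The control libraries enter comparisons among the vectors through the filter on low counts and the shared estimate of spread. AAV9-AIPL1wt exceeded AAV9-GFP in 17 members and was lower in 3, beside 25.6% and 25.5% of all genes. AAV9-AIPL1co was higher than AAV9-GFP in 12 and lower in 4, beside 16.1% and 14.8%. Its higher count was 9 without control replicate 2 or 3 and 7 without AAV9-GFP replicate 3 or AAV9-AIPL1co replicate 1 or 2, and its lower count was 2 without AAV9-GFP replicate 1 or AAV9-AIPL1co replicate 2 or 3. Between the AIPL1 vectors, AAV9-AIPL1co was higher in 6 members and lower in 13, beside 22.3% and 19.3% of all genes. These counts with all 12 libraries were 14 and 1 (20.8% and 19.3% of all genes), 3 and 1 (8.80% and 6.99%), and 2 and 12 (14.5% and 14.4%). Within the first date alone, with 2 libraries per group, the counts were 17 and 2, 8 and 4, and 4 and 14 for the same 3 comparisons. No share of all genes is given for that fit or for those without single libraries, so these counts stand without a background. The second date has 1 library of each vector and gives no test.

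**Figure D1:**
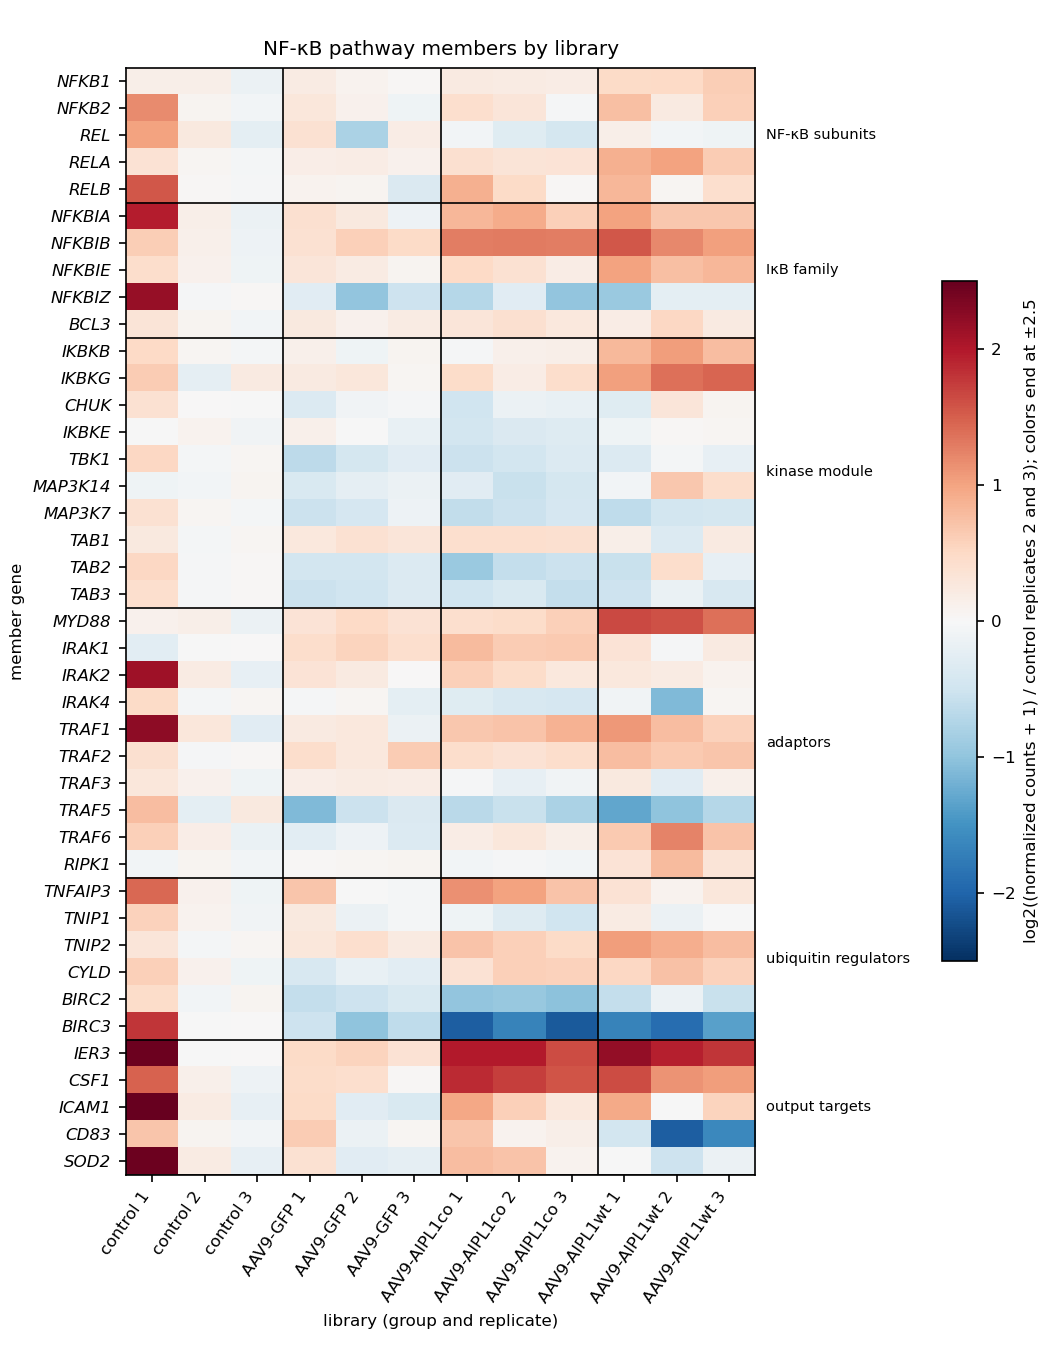
Each row is a member gene and each column a library; color is the log2 ratio of normalized counts (with 1 added) to the mean of control replicates 2 and 3. The AIPL1wt columns are red at MYD88, IKBKG and IKBKB, both AIPL1 vectors are red at IER3 and CSF1 and blue at BIRC3, and control replicate 1 is darkest red at IER3, ICAM1 and SOD2; TNFAIP2, with 0 to 11.8 normalized counts, is left out.

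Under the stricter rule used in the study, an adjusted p below 0.005 and a change of about 3-fold or more, few members were left. IER3 was higher with AAV9-AIPL1wt (2.37% of all genes were) and BIRC3 lower (4.90%). With AAV9-AIPL1co IER3 and CSF1 were higher (2.01%) and BIRC3 was lower (1.44%). CD83 was lower with AAV9-AIPL1wt than with AAV9-GFP (3.61%) and higher with AAV9-AIPL1co than with AAV9-AIPL1wt (2.06%). None passed in the other comparisons.

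The members together took 0.344 ± 0.0261% of gene counts in the control (SD, n = 2) and 0.348 ± 0.0297% with AAV9-GFP (n = 3). With the AIPL1 vectors the share was 0.455 ± 0.0420% (AAV9-AIPL1co) and 0.403 ± 0.0194% (AAV9-AIPL1wt), from 3 libraries each. SOD2, the mitochondrial superoxide dismutase, held much of this: without it the shares were 0.264%, 0.271%, 0.342% and 0.340%. Per kilobase of exon, IRAK1 was the highest member in the control at 668 ± 6.3 normalized counts, followed by TNIP1 at 443 ± 36.4. With the AIPL1 vectors IER3 headed the list, at 1151 ± 157 in AAV9-AIPL1co and 1244 ± 175 in AAV9-AIPL1wt. IER3 and IRAK1 (1086 ± 66.6) did not differ beyond their spread in AAV9-AIPL1co. REL and TNFAIP2 were at the bottom in every group, both below 1 normalized count per kilobase.

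Among the NF-κB subunits, 3 of 5 rose with AAV9-AIPL1wt against the control and 1 with AAV9-AIPL1co, and none was lower. Of all genes 26.4% and 22.4% were higher in these comparisons, so the AAV9-AIPL1co count was near the background. With all 12 libraries 2 subunits were higher with AAV9-AIPL1wt and 0 with AAV9-AIPL1co. RELA, the main transactivating subunit, had 1525 and 1430 normalized counts in control replicates 2 and 3 and 1647, 1670 and 1583 with AAV9-GFP. It had 1938, 1843 and 1876 with AAV9-AIPL1co and 2727, 2959 and 2301 with AAV9-AIPL1wt. The 4 groups followed that order without overlap, and control replicate 1 had 1887. AAV9-AIPL1wt exceeded the control by 0.80 ± 0.10 on the log2 scale (SE, adjusted p = 3.72e-06) and AAV9-GFP by 0.68 ± 0.09 (adjusted p = 7.36e-06). Between the AIPL1 vectors, RELA differed by -0.47 ± 0.09 for AAV9-AIPL1co over AAV9-AIPL1wt (adjusted p = 0.000458).

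NFKB1 encodes p105, the precursor of the p50 subunit. Its counts were 765, 775 and 836 with AAV9-AIPL1wt and 498 to 644 in the other libraries of all groups, control replicate 1 included. NFKB1 was higher with AAV9-AIPL1wt than in the control (0.48 ± 0.11, adjusted p = 0.00115) and than with AAV9-GFP (0.39 ± 0.10, adjusted p = 0.00256), and AAV9-AIPL1co was below AAV9-AIPL1wt (-0.29 ± 0.10, adjusted p = 0.0216). NFKB2, the precursor of p52, rose by 0.50 ± 0.16 with AAV9-AIPL1wt against the control (adjusted p = 0.0113), which became 0.04 (adjusted p = 0.917) with all 12 libraries. RELB, the partner of p52, passed only for AAV9-AIPL1co over AAV9-GFP (0.57 ± 0.20, adjusted p = 0.0382; 0.318 with all 12 libraries). REL, with 8.65 to 32.8 normalized counts, passed in no comparison, and 33.3% of its exon bases are shared with another annotated gene, which an unstranded count cannot separate.

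In the IκB family, 3 of 5 genes rose against the control with each AIPL1 vector, and with AAV9-AIPL1co NFKBIZ fell. NFKBIB (IκBβ, chr19:38899700-38908893, plus strand) lies within this rise. It had 181 and 152 normalized counts in control replicates 2 and 3 and 215, 251 and 233 with AAV9-GFP. Values were 402, 408 and 404 with AAV9-AIPL1co and 487, 384 and 337 with AAV9-AIPL1wt. Every AIPL1 library was above every GFP and control library, control replicate 1 (255) included, and the AIPL1 groups overlapped. NFKBIB was higher than in the control by 1.23 ± 0.16 with AAV9-AIPL1wt (adjusted p = 3.43e-06) and by 1.27 ± 0.15 with AAV9-AIPL1co (adjusted p = 4.69e-06). Over AAV9-GFP the log2 fold changes were 0.76 ± 0.13 and 0.80 ± 0.13 (adjusted p = 0.000134 and 0.000197). With all 12 libraries the control comparisons stayed at 1.04 and 1.05 (adjusted p = 0.000357 and 0.000642).

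NFKBIA, the classical inhibitor IκBα that newly released NF-κB induces at once, behaved alike with both vectors. Control replicates 2 and 3 had 717 and 581 normalized counts and AAV9-GFP 856, 761 and 587. AAV9-AIPL1co had 1146, 1236 and 978 and AAV9-AIPL1wt 1305, 1027 and 1026. The AIPL1 libraries lay above all of these GFP and control libraries, but control replicate 1, at 2525, lay above them all. The log2 fold change over AAV9-GFP was 0.58 ± 0.14 with AAV9-AIPL1wt (adjusted p = 0.00181) and 0.61 ± 0.14 with AAV9-AIPL1co (adjusted p = 0.0024). Against the control it was 0.74 ± 0.16 and 0.77 ± 0.16 (adjusted p = 0.000575 and 0.000581), and -0.19 in both with all 12 libraries (adjusted p = 0.71 and 0.734).

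NFKBIE (IκBε) separated the vectors. AAV9-AIPL1wt libraries had 438, 366 and 388 normalized counts and AAV9-AIPL1co libraries 307, 281 and 248, a log2 difference of -0.48 ± 0.12 for AAV9-AIPL1co over AAV9-AIPL1wt (adjusted p = 0.0043). NFKBIZ, a nuclear IκB that co-activates target genes, was 105 and 108 normalized counts in the control libraries used, 487 in control replicate 1 and 52.9 to 89.5 in the 9 vector libraries. Its fall passed the test for AAV9-AIPL1co against the control (-0.65 ± 0.23, adjusted p = 0.0265). NFKBIZ with all 12 libraries was lower than the control with AAV9-AIPL1wt (-1.57, adjusted p = 0.0163), AAV9-AIPL1co (-1.78, adjusted p = 0.012) and AAV9-GFP (-1.71, adjusted p = 0.0439). BCL3, another nuclear member, passed in no comparison.

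In the kinase module 5 of 10 genes were lower and 1 higher with AAV9-AIPL1co, both against AAV9-AIPL1wt and against the control. Of all genes 19.3% and 24.5% were called lower in these comparisons, and 22.3% and 22.4% higher. With all 12 libraries 5 kinase module genes were lower and 0 higher in both. IKBKG (NEMO, the scaffold of the IκB kinase complex, chrX:154541199-154565046, plus strand) had 33.9 and 47 normalized counts in control replicates 2 and 3 and 47.1, 49 and 41.4 with AAV9-GFP. It had 55.6, 45.3 and 54.3 with AAV9-AIPL1co and 81.9, 105 and 112 with AAV9-AIPL1wt. The 3 AAV9-AIPL1wt values were the highest of the 12, and the remaining groups overlapped. AAV9-AIPL1wt exceeded the control by 1.25 ± 0.21 (adjusted p = 6.7e-05) and AAV9-GFP by 1.10 ± 0.19 (adjusted p = 8.77e-05), and AAV9-AIPL1co was lower than it by a log2 change of -0.92 ± 0.18 (adjusted p = 0.000581). IKBKG has a near-identical pseudogene copy, and only uniquely aligned reads were counted, so its level is uncertain.

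IKBKB, the catalytic kinase of that complex, followed the same order. AAV9-AIPL1wt libraries had 811, 950 and 793 normalized counts, and the other 9 had 431 to 650. Its log2 fold change over AAV9-GFP was 0.82 ± 0.10 with AAV9-AIPL1wt (adjusted p = 3.62e-06), and 0.05 ± 0.10 with AAV9-AIPL1co (adjusted p = 0.757). AAV9-AIPL1co was below AAV9-AIPL1wt by a log2 change of -0.78 ± 0.10 (adjusted p = 1.28e-05). MAP3K14 (NIK, the kinase of the non-canonical branch) was also below its AAV9-AIPL1wt level with AAV9-AIPL1co (-0.79 ± 0.19, adjusted p = 0.00249), as were IKBKE (-0.35 ± 0.13, adjusted p = 0.0322) and TAB2 (-0.61 ± 0.17, adjusted p = 0.00776). CHUK, the partner kinase of IKBKB, passed in no comparison.

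The kinase TAK1 (MAP3K7) and its ubiquitin-binding partner TAB3 were lower than in the control with both AIPL1 vectors. MAP3K7 changed by -0.56 ± 0.13 with AAV9-AIPL1wt (adjusted p = 0.00162) and -0.54 ± 0.13 with AAV9-AIPL1co (adjusted p = 0.00276). TAB3 also fell with AAV9-GFP (-0.48 ± 0.11, adjusted p = 0.0197), as did the kinase TBK1 (-0.47 ± 0.13, adjusted p = 0.0331). None of the 3 passed in a comparison between vectors. TAB1, the partner that activates TAK1, was higher with AAV9-AIPL1co than with AAV9-AIPL1wt (0.42 ± 0.14, adjusted p = 0.0214), which did not pass with all 12 libraries (adjusted p = 0.0688).

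Of the 10 adaptors, 5 rose and 1 fell against the control with each AIPL1 vector. Among all genes tested, 26.4% were called higher and 30.0% lower for the native vector, beside 22.4% and 24.5% for the codon-optimized vector. Fitting all 12 libraries gave 4 adaptors higher for the native but 2 for the codon-optimized vector, with 1 lower for each. MYD88 (chr3:38138552-38143024, plus strand), through which interleukin-1 and most Toll-like receptors signal, changed most. Control replicates 2 and 3 had 355 and 291 normalized counts, and AAV9-GFP 408, 456 and 411. AAV9-AIPL1co had 430, 445 and 488 and AAV9-AIPL1wt 1014, 967 and 840. Every AAV9-AIPL1wt library was above every other library, and AAV9-AIPL1co overlapped AAV9-GFP. Over the control AAV9-AIPL1wt was higher by 1.50 ± 0.13 on the log2 scale (adjusted p = 4.38e-08) and over AAV9-GFP by 1.12 ± 0.11 (adjusted p = 2.41e-07). AAV9-AIPL1co was lower than AAV9-AIPL1wt by a log2 change of -1.02 ± 0.11 (adjusted p = 1.26e-06). With AAV9-AIPL1co the change from the control was 0.47 ± 0.13 (adjusted p = 0.00474), which without control replicate 3 was 0.34 (adjusted p = 0.108).

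TRAF6 (chr11:36483769-36510272, minus strand) is the ubiquitin ligase that relays the MYD88 signal to TAK1. It had 245 and 192 normalized counts in control replicates 2 and 3 and 180, 198 and 170 with AAV9-GFP. Values with AAV9-AIPL1co were 247, 263 and 242 and with AAV9-AIPL1wt 341, 515 and 357. The AAV9-AIPL1wt libraries were the highest, also against control replicate 1 (329). AAV9-AIPL1wt exceeded AAV9-GFP by 1.12 ± 0.15 (adjusted p = 7.87e-06), and AAV9-AIPL1co was below AAV9-AIPL1wt by a log2 change of -0.67 ± 0.15 (adjusted p = 0.00142). TRAF6 with AAV9-AIPL1co over AAV9-GFP, 0.46 ± 0.15 (adjusted p = 0.029), lost its call without any 1 AAV9-AIPL1co library and without AAV9-GFP replicate 1 or 3 (log2 values of 0.41 to 0.48), and with all 12 libraries (adjusted p = 0.129).

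IRAK1, the kinase that MYD88 recruits, went the other way. Control replicates 2 and 3 had 2828 and 2866 normalized counts, AAV9-GFP 3840, 4204 and 3828, AAV9-AIPL1co 4957, 4434 and 4503 and AAV9-AIPL1wt 3591, 2787 and 3306. It was highest with AAV9-AIPL1co, and AAV9-AIPL1wt overlapped the control. IRAK1 was higher with AAV9-AIPL1co than with AAV9-AIPL1wt by 0.55 ± 0.09 (adjusted p = 0.000151) and than in the control by 0.68 ± 0.11 (adjusted p = 4.8e-05). AAV9-GFP was also above the control (0.46 ± 0.10, adjusted p = 0.0171), and AAV9-AIPL1wt was below AAV9-GFP (-0.32 ± 0.09, adjusted p = 0.00776; 0.0517 with all 12 libraries).

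TRAF5 (chr1:211326615-211374946, plus strand), an adaptor of tumor necrosis factor family receptors, was the member of this set that fell. It had 48 and 68.5 normalized counts in control replicates 2 and 3 and 22.8 to 44.6 in the vector libraries. All vector libraries were below both controls. The log2 fold change was -1.07 ± 0.26 with AAV9-AIPL1wt (adjusted p = 0.00168) and -0.73 ± 0.25 with AAV9-AIPL1co (adjusted p = 0.0213). TRAF5 without control replicate 3 gave -0.76 and -0.43 (adjusted p = 0.0726 and 0.32), and its AAV9-AIPL1co call was also lost without AAV9-AIPL1co replicate 1 (-0.71) or 3 (-0.67), with the date as a term (-0.70, adjusted p = 0.0604) and in DESeq2 (-0.71, adjusted p = 0.0576). TRAF1, an NF-κB target that binds TRAF2, had 230, 237 and 177 with AAV9-GFP, 314, 323 and 362 with AAV9-AIPL1co and 422, 338 and 297 with AAV9-AIPL1wt. It exceeded AAV9-GFP with both AIPL1 vectors (0.68 ± 0.16 native and 0.63 ± 0.16 codon-optimized, adjusted p = 0.00182 and 0.00605), which was lost with all 12 libraries (adjusted p = 0.236 and 0.37). RIPK1, the kinase at the tumor necrosis factor receptor, was higher with AAV9-AIPL1wt than with AAV9-GFP (0.44 ± 0.12, adjusted p = 0.00622). IRAK4 and TRAF3 passed in no comparison.

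**Figure D2:**
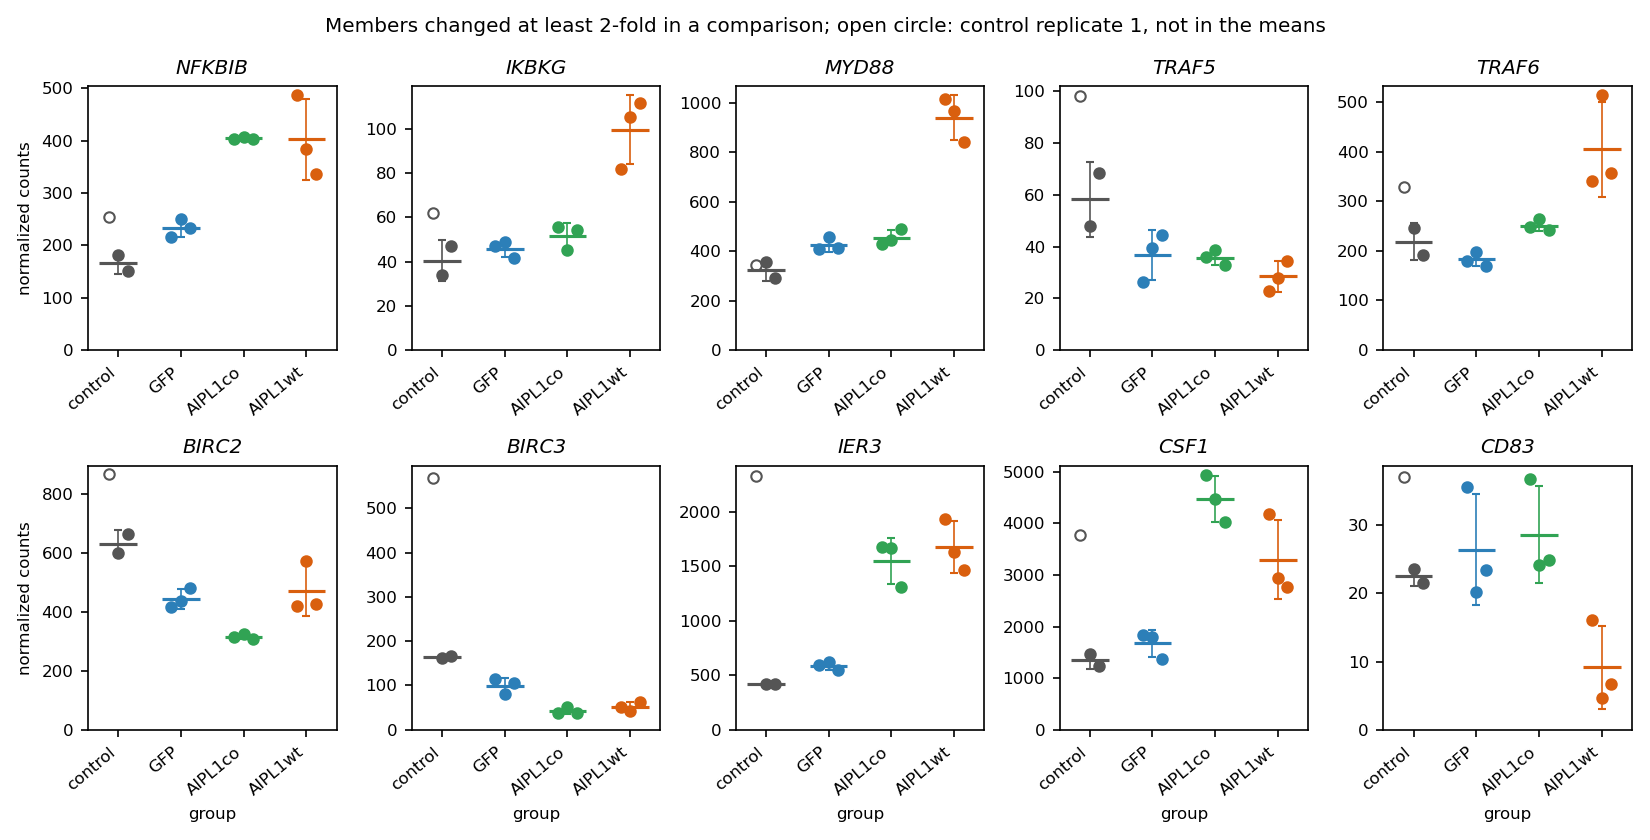
Normalized counts (vertical axes, from 0) of the 10 members that were called with a change of at least 2-fold in some comparison, by group; points are libraries, the long bar is the mean and the error bars the SD, over 2 control libraries and 3 of each vector. The open circle is control replicate 1, at 569 for BIRC3 and 2329 for IER3, far above the other controls; MYD88, IKBKG and TRAF6 are highest with AIPL1wt, and CD83 is lowest there.

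The ubiquitin regulators moved both ways. TNFAIP3 (A20), an enzyme that ends NF-κB signaling and is itself an NF-κB target, had 210 and 180 normalized counts in control replicates 2 and 3 and 316, 192 and 187 with AAV9-GFP. AAV9-AIPL1co had 430, 392 and 321 and AAV9-AIPL1wt 251, 207 and 238. AAV9-AIPL1co was above these groups without overlap, though control replicate 1 had 530. TNFAIP3 was higher with AAV9-AIPL1co by 0.95 ± 0.19 over the control (adjusted p = 0.000655), 0.72 ± 0.17 over AAV9-GFP (adjusted p = 0.00353) and 0.75 ± 0.17 over AAV9-AIPL1wt (adjusted p = 0.00198). With all 12 libraries the same 3 values were 0.31, 0.72 and 0.72 (adjusted p = 0.466, 0.15 and 0.116), none of which passed.

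CYLD, a deubiquitinase that also restrains the pathway, rose with both AIPL1 vectors. It had 649, 754 and 719 normalized counts with AAV9-GFP, 1100, 1298 and 1284 with AAV9-AIPL1co and 1237, 1433 and 1286 with AAV9-AIPL1wt. Its log2 fold change over AAV9-GFP was 0.87 ± 0.10 with AAV9-AIPL1wt (adjusted p = 1.55e-06) and 0.80 ± 0.10 with AAV9-AIPL1co (adjusted p = 1.08e-05), and both passed with all 12 libraries. TNIP2, a ubiquitin-binding partner of A20, was likewise higher than AAV9-GFP with AAV9-AIPL1wt (0.58 ± 0.11, adjusted p = 0.000198) and AAV9-AIPL1co (0.29 ± 0.11, adjusted p = 0.0432; 0.124 with all 12 libraries). TNIP1, the related partner, was lower with AAV9-AIPL1co than with AAV9-GFP (-0.32 ± 0.12, adjusted p = 0.0459; 0.206 with all 12 libraries).

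BIRC3 and BIRC2 encode the ubiquitin ligases cIAP2 and cIAP1 and lie side by side (BIRC3 at chr11:102317484-102339403 and BIRC2 at chr11:102347211-102378670, both on the plus strand). BIRC3 had 162 and 166 normalized counts in control replicates 2 and 3 and 114, 80.8 and 105 with AAV9-GFP. It had 38.6, 51.1 and 37.3 with AAV9-AIPL1co and 51, 42.9 and 63.6 with AAV9-AIPL1wt. AAV9-GFP lay between the control and the AIPL1 vectors with no overlap, and control replicate 1 was at 569. The fall from the control was -1.70 ± 0.20 with AAV9-AIPL1wt (adjusted p = 1.24e-06) and -1.96 ± 0.20 with AAV9-AIPL1co (adjusted p = 5.72e-07). Against AAV9-GFP it was -0.96 ± 0.19 and -1.23 ± 0.19 (adjusted p = 0.000419 and 0.000119), which with all 12 libraries kept its size (-0.93 and -1.23) but not its call (adjusted p = 0.103 and 0.0707). AAV9-GFP itself was below the control by a log2 change of -0.74 ± 0.18 (adjusted p = 0.0214). BIRC3 with AAV9-GFP lost that call without control replicate 2 or 3 or AAV9-GFP replicate 1 or 2 (values of -0.70, -0.68, -0.82 and -0.58). BIRC3 was further below the control with all 12 libraries, by log2 changes of -2.51 for the native and -2.81 for the codon-optimized sequence (adjusted p = 0.000286 for both), and stayed lower with AAV9-GFP (adjusted p = 0.0314). BIRC3 thus fell in the libraries in which NFKBIA, IER3 and CSF1, likewise NF-κB targets, rose.

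BIRC2 had 599 and 663 normalized counts in control replicates 2 and 3 and 416, 438 and 481 with AAV9-GFP. It had 317, 325 and 307 with AAV9-AIPL1co and 419, 573 and 427 with AAV9-AIPL1wt. All vector libraries were below both controls, and AAV9-AIPL1co was below every other library. The log2 fold change against the control was -1.01 ± 0.13 with AAV9-AIPL1co (adjusted p = 7.28e-06), and AAV9-AIPL1co was also lower than AAV9-GFP (-0.49 ± 0.12, adjusted p = 0.00482) and AAV9-AIPL1wt (-0.56 ± 0.12, adjusted p = 0.00132). BIRC2 with AAV9-AIPL1wt against the control was -0.46 ± 0.13 (adjusted p = 0.00544), and -0.35 without control replicate 3 (adjusted p = 0.108). With AAV9-GFP it was -0.53 ± 0.13 (adjusted p = 0.021), a call lost without control replicate 2 (-0.55) or 3 (-0.41) or AAV9-GFP replicate 1 (-0.46) or 2 (-0.49), and with the date as a term (-0.43, adjusted p = 0.089).

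Among the output targets, AAV9-AIPL1co had 4 of the 5 tested above AAV9-GFP and none below, beside 16.1% and 14.8% of all genes. AAV9-AIPL1wt had 2 above and 1 below, beside 25.6% and 25.5%. With all 12 libraries the counts were 1 above and 0 below for AAV9-AIPL1co, and still 2 and 1 for AAV9-AIPL1wt. IER3 (chr6:30743199-30744548, minus strand), an immediate early gene with a survival role, had 422 and 425 normalized counts in control replicates 2 and 3 and 593, 625 and 547 with AAV9-GFP. It reached 1679, 1673 and 1309 with AAV9-AIPL1co and 1935, 1633 and 1469 with AAV9-AIPL1wt. The AIPL1 groups overlapped each other and were above the GFP and control libraries, except control replicate 1 at 2329, the highest of all. Over AAV9-GFP the log2 fold change was 1.49 ± 0.12 with AAV9-AIPL1wt (adjusted p = 2.43e-08) and 1.40 ± 0.12 with AAV9-AIPL1co (adjusted p = 1.18e-07; 0.0618 with all 12 libraries). Against the control IER3 rose by 1.94 ± 0.14 and 1.86 ± 0.14 (adjusted p = 7.81e-09 and 2.06e-08), which fell to 0.66 and 0.55 with all 12 libraries (adjusted p = 0.255 and 0.37). Of its exon bases 38.9% are shared with other annotated genes, which unstranded counts cannot separate.

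IER3 also differed between AAV9-GFP and the control, by 0.45 ± 0.13 (adjusted p = 0.0435). That difference turned to -0.85 with all 12 libraries (adjusted p = 0.243). It was not called without control replicate 2 (0.50), control replicate 3 (0.50), AAV9-GFP replicate 1 (0.47), AAV9-GFP replicate 2 (0.43) or AAV9-AIPL1co replicate 2 (0.45), nor with the date as a term (0.50, adjusted p = 0.0693) or in limma voom (0.45, adjusted p = 0.054).

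CSF1 (chr1:109910242-109930992, plus strand), the macrophage colony-stimulating factor, had 1470 and 1234 normalized counts in control replicates 2 and 3 and 1843, 1794 and 1379 with AAV9-GFP. It had 4926, 4469 and 4032 with AAV9-AIPL1co and 4181, 2947 and 2761 with AAV9-AIPL1wt. All AIPL1 libraries were above all GFP and used control libraries, and control replicate 1, at 3764, lay within the AAV9-AIPL1wt range. The log2 fold change over AAV9-GFP was 1.42 ± 0.14 with AAV9-AIPL1co (adjusted p = 7.53e-07) and 0.95 ± 0.14 with AAV9-AIPL1wt (adjusted p = 2.38e-05), and both passed with all 12 libraries. Against the control it was 1.71 ± 0.17 and 1.24 ± 0.16 (adjusted p = 3.78e-07 and 5.19e-06), or 1.05 and 0.61 with all 12 libraries (adjusted p = 0.0182 and 0.121). CSF1 was higher with AAV9-AIPL1co than with AAV9-AIPL1wt by 0.47 ± 0.14 (adjusted p = 0.0114), a call lost without AAV9-AIPL1co replicate 1 (0.37) or AAV9-AIPL1wt replicate 3 (0.33), within the first date (0.30, adjusted p = 0.102) and with all 12 libraries (adjusted p = 0.311).

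CD83 (chr6:14117256-14136918, plus strand), a surface protein of activated antigen-presenting cells, was low throughout. Control replicates 2 and 3 had 23.5 and 21.5 normalized counts and AAV9-GFP 35.6, 20.2 and 23.4. AAV9-AIPL1co had 36.7, 24.1 and 24.9 and AAV9-AIPL1wt 16.1, 4.66 and 6.69. Each AAV9-AIPL1wt library was below all others. CD83 was higher with AAV9-AIPL1co than with AAV9-AIPL1wt by 1.76 ± 0.38 (adjusted p = 0.00137), and by 1.15 within the first date (adjusted p = 0.0378). AAV9-AIPL1wt was lower than AAV9-GFP (-1.63 ± 0.39, adjusted p = 0.002) and than the control (-1.42 ± 0.43, adjusted p = 0.00869), the last not called without control replicate 2 (-1.32, adjusted p = 0.0517).

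SOD2 had 6901 and 5248 normalized counts in control replicates 2 and 3, 7848, 4939 and 5164 with AAV9-GFP, 10271, 9817 and 6403 with AAV9-AIPL1co and 5949, 4218 and 5405 with AAV9-AIPL1wt. AAV9-AIPL1co was above AAV9-AIPL1wt without overlap but overlapped the GFP and control libraries, and control replicate 1 stood at 33004. SOD2 changed with AAV9-AIPL1co by 0.79 ± 0.18 over AAV9-AIPL1wt (adjusted p = 0.00185), 0.57 ± 0.18 over AAV9-GFP (adjusted p = 0.0225) and 0.52 ± 0.20 over the control (adjusted p = 0.0417), and none of the 3 passed with all 12 libraries (adjusted p = 0.265, 0.466 and 0.237). ICAM1, an adhesion molecule and standard NF-κB target, had 415, 318 and 254 with AAV9-AIPL1co against 296, 174 and 163 with AAV9-GFP. It passed only in that comparison (0.65 ± 0.24, adjusted p = 0.0447; 0.555 with all 12 libraries), and 25.4% of its exon bases are shared with other annotated genes. TNFAIP2 had 0 to 11.8 normalized counts and was not tested.

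**Figure D3:**
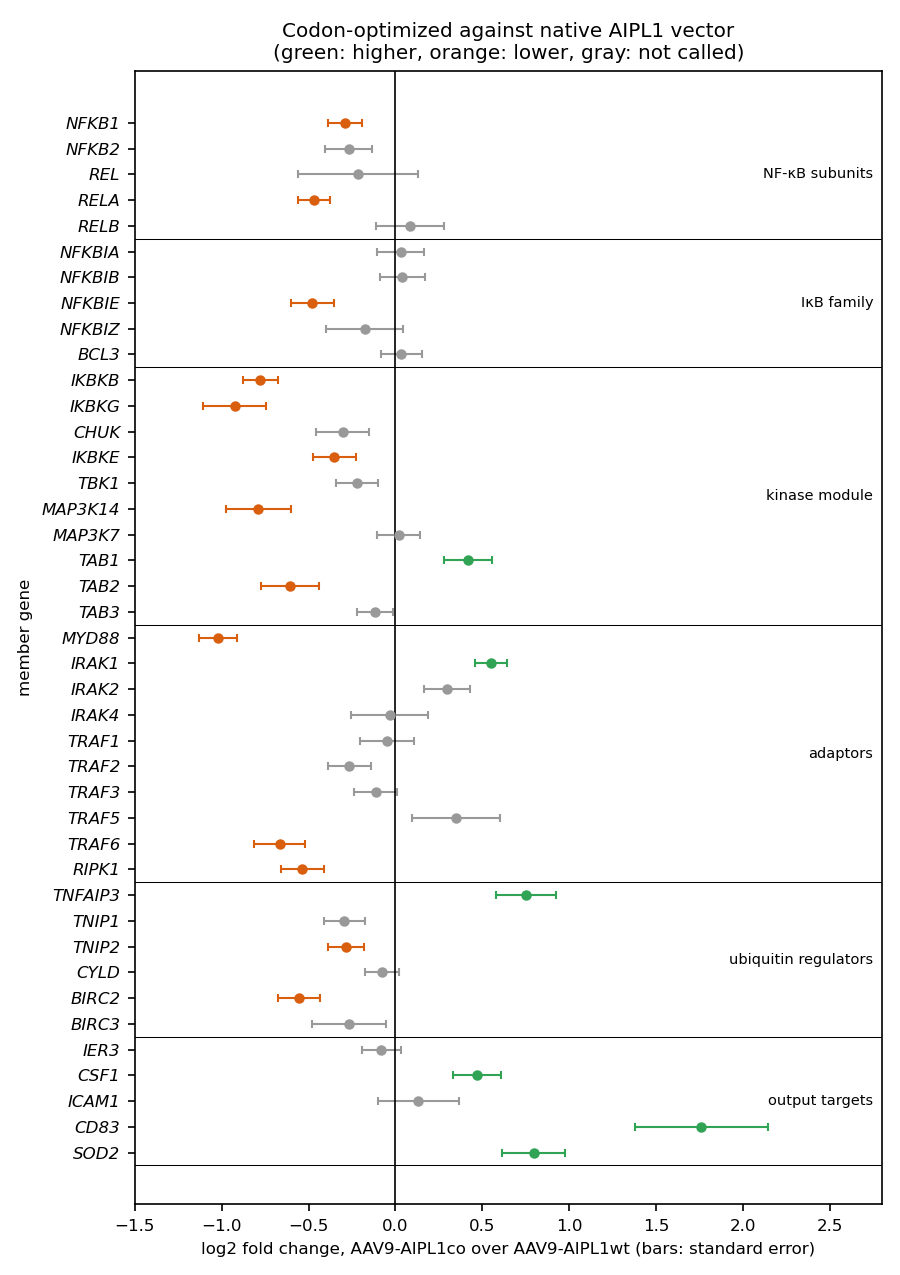
Points give the log2 fold change of AAV9-AIPL1co over AAV9-AIPL1wt for each tested member and bars its standard error, with members grouped by role on the vertical axis. The lower calls sit mostly in the kinase module and adaptors, down to -1.02 at MYD88, and 3 of the 6 higher calls are output targets, up to 1.76 at CD83.

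By role, 23 members were not on the textbook list of NF-κB targets, which does not exclude that NF-κB induces some of them. Among these 23, AAV9-AIPL1co was lower than AAV9-AIPL1wt in 11 and higher in 2, with a median log2 fold change of -0.29. Among the 18 tested targets it was higher in 4 and lower in 2, with a median of -0.01. Of all genes 22.3% were called higher and 19.3% lower, so that the 4 of 18 higher targets were near the background. With all 12 libraries these counts became 10 and 1, and 2 and 1 in the targets (lower first). No test of the difference between the lists was made. All of the 11 lower calls but that of TNIP2 were thus also made with all 12 libraries, whereas of the 4 higher calls among targets 1, CD83, was. Control replicate 1 enters this comparison through the filter on low counts and the shared estimate of spread. It was more than 2-fold high in 12 of the 18 targets and in 0 of the 23 others. With it the medians were -0.04 for the targets and -0.31 for the others. The lost calls therefore do not compare the lists, and their cause was not tested.

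In control replicate 1 many targets were high. Against the mean of control replicates 2 and 3, 12 of the 18 tested targets were more than 2-fold higher (median log2 ratio 1.52) and 0 of the 23 other members (median 0.39). None of the 41 was more than 2-fold lower. Of all 13896 genes, 6.92% were more than 2-fold higher and 6.76% lower, with a median of 0.01. This library took 0.935% of its counts from the 42 genes, and the ratio has no replicate behind it. The pattern across members matched that of the AIPL1 vectors in part. NFKBIA, TRAF1, IER3 and CSF1, high in this library, also exceeded AAV9-GFP with both vectors in the 11 libraries. RELB, TNFAIP3, ICAM1 and SOD2 did so with AAV9-AIPL1co alone and NFKB2 with AAV9-AIPL1wt alone, while IRAK2 and NFKBIZ did so with neither. BIRC3, 3.46-fold higher in this library, fell with both vectors, and NFKBIZ fell against the control with AAV9-AIPL1co. MYD88 (345 normalized counts, between 291 and 355 in the other controls) rose with AAV9-AIPL1wt.

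**Figure D4:**
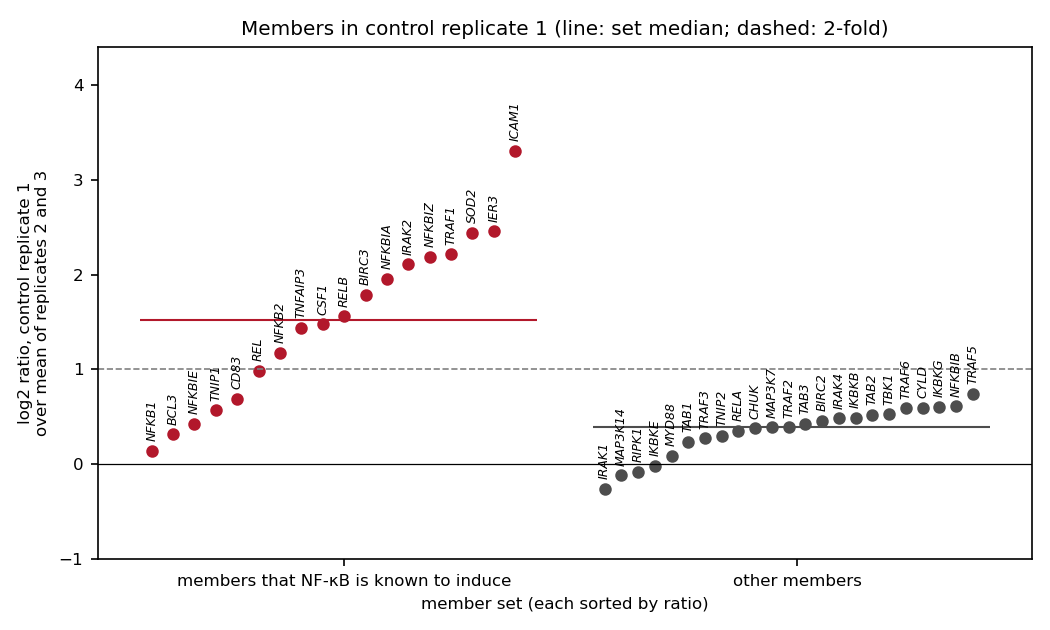
Each point is a member, placed by the log2 ratio of its normalized count (with 1 added) in control replicate 1 to the mean of control replicates 2 and 3. Members that NF-κB is known to induce (left) have a median of 1.52 and reach furthest at ICAM1; all other members (right) stay under the dashed 2-fold line.

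The wider pathway was followed in 74 further genes, of which 52 could be tested; TNF, IL1A, CD40, TLR2 and TNFRSF1B were among the 22 too low to test. Against the control AAV9-AIPL1wt had 20 higher and 10 lower (26.4% and 30.0% of all genes), AAV9-AIPL1co 9 and 12 (22.4% and 24.5%), and AAV9-GFP 2 and 3 (2.30% and 6.66%). Over AAV9-GFP, AAV9-AIPL1wt had 21 and 8 (25.6% and 25.5%) and AAV9-AIPL1co 9 and 8 (16.1% and 14.8%). AAV9-AIPL1co was higher than AAV9-AIPL1wt in 4 and lower in 18 (22.3% and 19.3%), with a median log2 fold change of -0.25. The 6 comparisons had, with all 12 libraries, 13 and 11, 6 and 15, 0 and 6, 16 and 6, 2 and 2, and 0 and 12. The 18 lower between the AIPL1 vectors were 4 of 10 receptors and ligands, 10 of 31 adaptors, kinases and ubiquitin enzymes and 4 of 11 target genes.

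TLR4, the lipopolysaccharide receptor, had 212 ± 83.1 normalized counts with AAV9-AIPL1wt (SD, n = 3) and 65.2 ± 9.82 to 73.0 ± 9.98 in the other groups. Its log2 fold change was 1.69 ± 0.22 for AAV9-AIPL1wt over AAV9-GFP (adjusted p = 5.84e-06) and -1.59 ± 0.22 for AAV9-AIPL1co over AAV9-AIPL1wt (adjusted p = 1.9e-05). CARD10 and MALT1, which are parts of a scaffold that activates the IκB kinase complex, showed the same order. CARD10 differed by 1.05 ± 0.15 and -1.45 ± 0.15 in these comparisons (adjusted p = 1.13e-05 and 9.04e-07), and MALT1 by 1.14 ± 0.22 and -1.31 ± 0.22 (adjusted p = 0.000304 and 0.000158). TLR3, the receptor for double-stranded RNA, fell against the control from 23.5 ± 4.1 to 4.3 ± 1.2 normalized counts with AAV9-AIPL1wt and 5.8 ± 4.1 with AAV9-AIPL1co (log2 fold changes of -2.42 ± 0.47 and -1.96 ± 0.43, adjusted p = 0.000264 and 0.00121). IL1R1, the interleukin-1 receptor, fell likewise (-1.24 ± 0.20 and -1.72 ± 0.21, adjusted p = 4.82e-05 and 4.2e-06).

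TOLLIP, which dampens interleukin-1 and Toll-like receptor signaling, rose with both AIPL1 vectors over AAV9-GFP (0.85 ± 0.11 for the native and 0.81 ± 0.11 for the codon-optimized sequence, adjusted p = 5.31e-06 and 2.53e-05). CASP8, a protease of the tumor necrosis factor receptor complex, was lower than AAV9-GFP with both (-1.55 ± 0.20 and -0.77 ± 0.18, adjusted p = 5.83e-06 and 0.00403; the second 0.0515 with all 12 libraries). TLR6, a partner of TLR2, was lower than the control with AAV9-AIPL1co (-1.39 ± 0.27, adjusted p = 0.000482) and PELI2, a ubiquitin ligase of IRAK proteins, was higher than AAV9-GFP (0.94 ± 0.30, adjusted p = 0.0227; not called with all 12 libraries). TNFRSF9, a receptor of the tumor necrosis factor family, was lower with AAV9-AIPL1wt than with AAV9-GFP (-1.07 ± 0.18, adjusted p = 7.37e-05). IL1B, the cytokine interleukin-1β, was highest with AAV9-AIPL1co among the 11 libraries (1.51 ± 0.21 over the control, adjusted p = 1.8e-05, and 0.58 ± 0.18 over AAV9-AIPL1wt, adjusted p = 0.0136). Neither IL1B difference passed with all 12 libraries, the first turning to -1.24 (adjusted p = 0.225), nor did CCL2, a chemokine, over the control with AAV9-AIPL1co (0.80 ± 0.18, adjusted p = 0.00148). With AAV9-GFP against the control, IL1B (0.71 ± 0.21, adjusted p = 0.0435) and LTBR (0.38 ± 0.11, adjusted p = 0.0345) were higher, and ITCH (-0.65 ± 0.18), IL1RAP (-0.63 ± 0.18) and TAX1BP1 (-0.54 ± 0.10) were lower (adjusted p = 0.0316, 0.035 and 0.0078). Both higher calls were lost with all 12 libraries, IL1B turning to -2.04 (adjusted p = 0.108) and LTBR to 0.19 (adjusted p = 0.401).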

How the data were processed

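Per the labels and the study's methods, the authors aligned 60-base, poly(A)-selected, unstranded reads with STAR 2.7.10b to GRCh38 with Gencode 43, and deposited raw counts per gene over the union of exons (HTSeq 0.11.1, uniquely aligned reads). STAR's own counts were not used. In R 4.3.3, edgeR 4.0.16 fitted the 4 groups to 11 libraries (quasi-likelihood test, group as the only term, TMM, filterByExpr); 4 vector entries were dropped, and p-values were adjusted (Benjamini-Hochberg) over 13896 genes. Normalized counts were scaled by TMM over all 12 libraries. Group values are means ± SD, and fold changes carry an SE. Members called with a log2 fold change of at least 1 are described in full, as are, of the other pathway genes, up to 3 per direction and comparison; further members were chosen after their values were seen. The members and lists were chosen with earlier results of these data known. DESeq2 1.42.0 and limma 3.58.1 were alternatives. Positions are from Gencode 44. The tests were tested on simulated data. Intervals of counting error were not added, since replicates give the error.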

Additional observations from a re-analysis of the deposited data

Results flagged for a closer look

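Non-transduced control replicate 1 was left out of the comparisons, and 12 members were more than 2-fold above the mean of control replicates 2 and 3 in it. ICAM1 was 9.90-fold higher, IER3 5.49-fold, SOD2 5.43-fold, TRAF1 4.64-fold, NFKBIZ 4.55-fold and IRAK2 4.32-fold. NFKBIA was 3.89-fold higher, BIRC3 3.46-fold, RELB 2.95-fold, CSF1 2.78-fold, TNFAIP3 2.71-fold and NFKB2 2.26-fold. All 12 are NF-κB targets. This is a single library of the first date, while the controls it is set against are of the second, and the cause was not tested.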

How the results depend on the processing

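Counts of members called are given as higher/lower. Shares of all genes called higher and lower are given above only for the main fit, the stricter rule and all 12 libraries. The main values were 17/6 for AAV9-AIPL1wt and 16/9 for AAV9-AIPL1co against the control, 2/4 for AAV9-GFP against the control, 17/3 and 12/4 for the same AIPL1 vectors against AAV9-GFP, and 6/13 for AAV9-AIPL1co against AAV9-AIPL1wt. In that order, the rule of adjusted p below 0.005 and a change of about 3-fold or more gave 1/1, 2/1, 0/0, 0/1, 0/0 and 1/0. All 12 libraries gave 11/8, 5/10, 1/7, 14/1, 3/1 and 2/12, and with a term for the date as well 12/9, 5/11, 1/8, 14/2, 4/1 and 2/11. AAV9-GFP against the control was 0/1 with the date term, 5/4 with DESeq2, 1/4 with limma voom and 6/9 when only those groups were fitted. Other counts under the alternatives tried stayed within 1.5 times the main one. Leaving out 1 library at a time gave, for AAV9-AIPL1wt against the control, 14 to 20 higher and 3 to 9 lower; for AAV9-AIPL1co 8 to 19 and 6 to 11; and for AAV9-GFP 0 to 5 and 0 to 8. Against AAV9-GFP the ranges were 17 to 18 and 2 to 4 for AAV9-AIPL1wt, and 7 to 14 and 2 to 5 for AAV9-AIPL1co; between the AIPL1 vectors they were 4 to 7 and 10 to 14. The low ends for both AIPL1 vectors against the control were without control replicate 3.

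IER3 in AAV9-GFP against the control reversed to -0.85 with all 12 libraries and to -0.81 with the date term too. Of 40 called values of the 10 members described in full, 23 kept direction and call in every alternative. Whether replicate numbers pair the samples was not settled. Same-numbered libraries of different groups had deviations correlated from -0.07 to 0.21, over 0.1 in 3 of 15 pairs. For differently numbered libraries the range was -0.23 to 0.19, over 0.1 in 3 of 30 pairs. Of 11 libraries 6 correlated best with their own number. A fit with the replicate block gave 17/7, 14/10, 2/4, 19/3, 13/4 and 7/15 and lost 0 of the 40 called values. Over all genes it lowered the calls from 1245 to 1061 for AAV9-GFP against the control and raised them in every other comparison. The rise was from 7828 to 7893 for AAV9-AIPL1wt and from 6508 to 6538 for AAV9-AIPL1co against the control. Against AAV9-GFP it was from 7102 to 7443 and from 4300 to 4771, and between the AIPL1 vectors from 5771 to 6218. Only 2 control libraries, both of the second date, limit every control comparison, and low counts limit CD83, REL and TRAF5. The cause of the shifts with control replicate 1 was not tested.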
